A study of Rattus norvegicus with 6 samples.

Results

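The potassium channels that repolarize the rat ventricle were followed across 6 arrays, through the 10 genes Kcnd2, Kcnd3, Kcnip2, Kcna4, Kcna5, Kcnq1, Kcnj2, Kcnj8, Kcnj11 and Kcnk3. They were taken by symbol from the array's annotation, which gave all 10, of 10411 named genes, at 18 of the 15923 probe sets. Total RNA came from the left ventricle of 3 rats labelled diabetic and 3 labelled normal, with 1 Affymetrix array per heart. The labels name no allele, agent, strain, age, sex or duration for either group, and the way diabetes was produced is not given in the sources used here, so the diabetic group is known only by that word. The comparison between them asks which transcripts differ in the diabetic heart.

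A ventricular action potential ends when outward potassium current outweighs inward calcium current. In the rat, whose action potential is short, early repolarization rests mainly on the transient outward current, carried by Kv4 channels built from Kcnd2 and Kcnd3 with the cytosolic subunit KChIP2 (Kcnip2), and in part by Kv1.4 (Kcna4). Other channels carry sustained current (Kcna5), slow delayed rectifier current (Kcnq1), the inward rectifier current that holds the resting potential (Kcnj2), the ATP-sensitive current that couples membrane potential to metabolism (Kcnj11 and Kcnj8), and a background leak (Kcnk3).

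The values are signal intensities on a linear scale, and the trimmed mean was 500.2 on each of the 6 arrays. Cardiomyocyte markers were bright in both groups. The summed signal of the 8 that the array holds was 213477.7 to 266985.1 in diabetic and 238282.5 to 305025.4 in normal arrays. Of these 1 fell, the myosin gene Myh6 (log2 -1.55, adjusted p = 0.0281), against 1.38% of all tested probe sets. The sarcoplasmic reticulum protein Pln averaged 28871 ± 3691 in diabetic and 27865 ± 3281 in normal arrays (SD, n = 3 each). None of the 8 nerve markers lay above the filter for dim probe sets, and their summed signal was 203 to 351 in diabetic and 203 to 316 in normal arrays. Of 4 tested atrial markers 1 rose, Nppa (log2 2.76, limma adjusted p = 0.00087), against 1.5% of all tested probe sets. Others varied widely between arrays. Myl7 read 328.1, 468.0 and 131.3 in diabetic and 812.1, 162.4 and 99.9 in normal arrays. Sln ran from 291.9 to 465.6 in diabetic and from 10.5 to 398.9 in normal arrays. The part of atrial tissue in the potassium channel values was not tested. Because RNA came from whole tissue, fewer cells of a type and less RNA per cell cannot be told apart. Since nothing beyond the count of animals is stated, p-values measure the spread between these 6 hearts.

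None of the potassium channel probe sets passed the test. Of the 18, 13 lay above the filter for dim probe sets and were tested, covering 8 genes, and Kcna4 and Kcnj2 lay below it at their only probe sets. Every diabetic array lay below every normal one at both Kcnd2 probe sets and 1 of 3 for Kcnj11, and above at 1 of 3 probe sets for each of Kcnip2 and Kcnk3. limma called 0 of the 13 at a Benjamini-Hochberg adjusted p under 0.05, where it called 2.88% of all 9519 tested probe sets, 1.5% as risen and 1.38% as fallen. The lowest adjusted p of the 13 was 0.0572. At an unadjusted p under 0.05 the count was 6 of 13, against 19.9% of all tested probe sets. Diabetic and normal arrays were fully apart at 5 of the 13, against 25.7% of all tested probe sets. Diabetic arrays were the lower ones at 3, against 13.6% of all tested probe sets, and the higher ones at 2, against 12.1%. These counts are not of independent genes, since Kcnj11 holds 3 of the 13 probe sets and Kcnd2, Kcnip2 and Kcnk3 hold 2 each. The median log2 fold change of the 13 was -0.11, beside -0.01 for all tested probe sets. Fold changes here are differences of mean log2(signal + 16), diabetic minus normal, a scale that understates the change of dim probe sets.

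**Figure D1:**
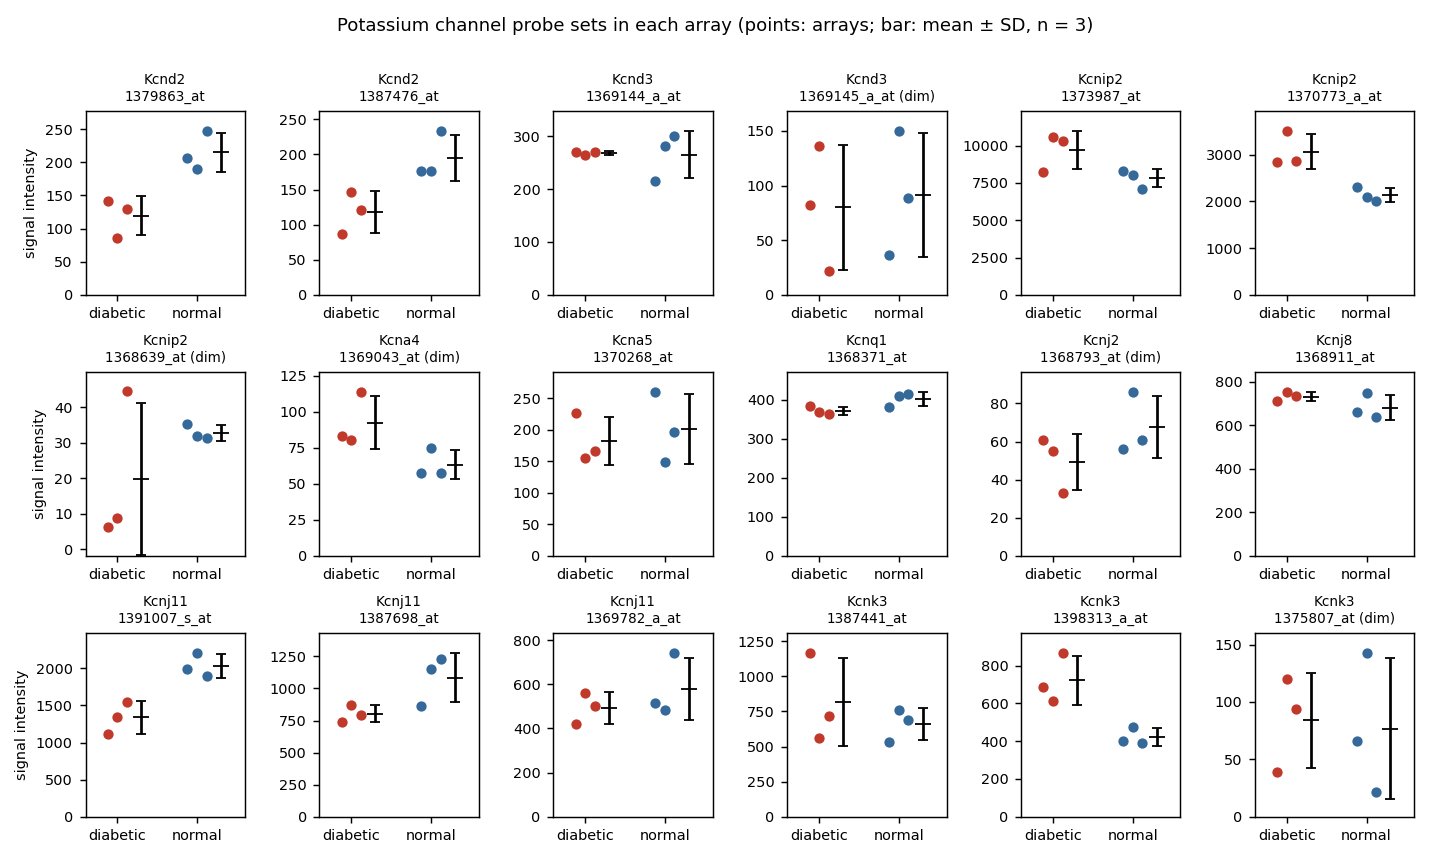
Signal intensity (linear axis) of all 18 potassium channel probe sets in each array, with diabetic arrays left and normal arrays right in every panel. Points are arrays and the bar beside them is the mean ± SD of 3 arrays. At both Kcnd2 panels and Kcnj11 1391007_s_at every diabetic point lies below every normal point. At Kcnip2 1370773_a_at, Kcnk3 1398313_a_at and the dim Kcna4 panel every diabetic point lies above. The 5 panels marked dim were not tested.

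Kcnd2 encodes Kv4.2, the main pore subunit of the fast transient outward channel in rat ventricle. Its brighter probe set, 1379863_at, read 141.8, 86.0 and 130.2 in diabetic arrays 1, 2 and 3, against 206.9, 190.5 and 247.1 in normal arrays 1, 2 and 3. Every diabetic heart was below every normal heart. The log2 fold change was -0.79 ± 0.20 (SE, 95% interval -1.23 to -0.34), a ratio of 0.58, with a limma adjusted p of 0.0702. Of all tested probe sets, 4.54% had a larger fold change in either direction.

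The second Kcnd2 probe set, 1387476_at, gave a like picture from another target sequence. It read 86.7, 146.6 and 120.9 in diabetic arrays, against 175.9, 177.1 and 233.3 in normal arrays. Again the groups did not overlap, and diabetic 2, the lowest diabetic array at the first probe set, was the highest at this one. The log2 fold change was -0.67 ± 0.20 (95% interval -1.13 to -0.22), with an adjusted p of 0.11. With any 1 array left out, the fold change stayed between -0.91 and -0.60 at the first probe set and between -0.82 and -0.49 at the second. Both probe sets lay not far above the filter for dim probe sets, near the middle of the array's signals.

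Kcnd3 encodes Kv4.3, which assembles with Kv4.2 in the same channels. At its brighter probe set, 1369144_a_at, diabetic arrays read 269.7, 264.4 and 270.1 and normal arrays 215.4, 281.3 and 299.6. The diabetic values lay inside the normal range. The log2 fold change was 0.03 ± 0.16, and the 95% interval of -0.33 to 0.39 takes in changes of either sign (adjusted p = 0.952). Without normal 1 it turned to -0.11. The dimmer probe set 1369145_a_at, below the filter, ran from 21.9 to 136.1 in diabetic and from 36.4 to 149.8 in normal arrays, a spread wider than the difference between the means, and its log2 value of -0.22 turned to 0.34 without diabetic 3 and to 0.16 without normal 2.

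Kcnip2 encodes KChIP2, the calcium-binding subunit that brings Kv4 channels to the membrane and raises their current. Its probe set 1370773_a_at read 2837.2, 3505.5 and 2862.5 in diabetic arrays, against 2305.0, 2090.2 and 2017.3 in normal arrays. Every diabetic heart was above every normal heart. The log2 fold change was 0.51 ± 0.15 (95% interval 0.17 to 0.86), a ratio of 1.43, with an adjusted p of 0.105. The brightest Kcnip2 probe set, 1373987_at, read 8203.6, 10545.5 and 10289.9 in diabetic arrays, against 8299.0, 8054.6 and 7107.8 in normal arrays. There diabetic 1 fell within the normal range, and the log2 fold change was 0.30 ± 0.16 (adjusted p = 0.33). The third probe set, 1368639_at, was dim, at 6.3, 8.8 and 44.5 in diabetic and 35.3, 31.8 and 31.3 in normal arrays, and its value of -0.60 on the log2 scale has the opposite sign, with diabetic 3 well above the other diabetic arrays. Kcnip2 is known to be spliced into several forms, and which of them each probe set reads was not examined.

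Kcna4 encodes Kv1.4, the pore of the slowly recovering transient outward channel. Its 1 probe set lay below the filter and was not tested. Its signals were 83.6, 80.2 and 113.8 in diabetic arrays, against 57.4, 74.9 and 57.3 in normal arrays. All diabetic values were above all normal ones, by 0.45 on the log2 scale.

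Within each array, the signal of one transient outward subunit was also set against that of another. The log2 signal of Kcnd2 minus that of Kcna4 differed by -1.24 between diabetic and normal arrays, with SDs of 0.31 and 0.33, and by -0.91 with a pseudocount of 64. The Kcna4 probe set is below the dim filter, so the size of this difference depends on how its low signals are treated. Against Kcnip2 the Kcnd2 signal differed between the groups by -1.09, and against Kcnd3 by -0.81. In each of these pairs the 3 diabetic arrays lay below the 3 normal arrays, as they did for Kcnd2 1379863_at by itself. The brightest probe set of each gene was used, which for Kcnip2 was 1373987_at, whose own groups overlapped. The pair with Kcna4 had an exact two-sided permutation p of 0.1, the smallest that 3 against 3 arrays allow, so this test could not pass the threshold. The pairs with Kcnip2 and Kcnd3, and that of Kcnj11 and Kcnj8 given with those genes, were chosen with the values known and are descriptions. None of these values says how much of each channel was present.

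**Figure D2:**
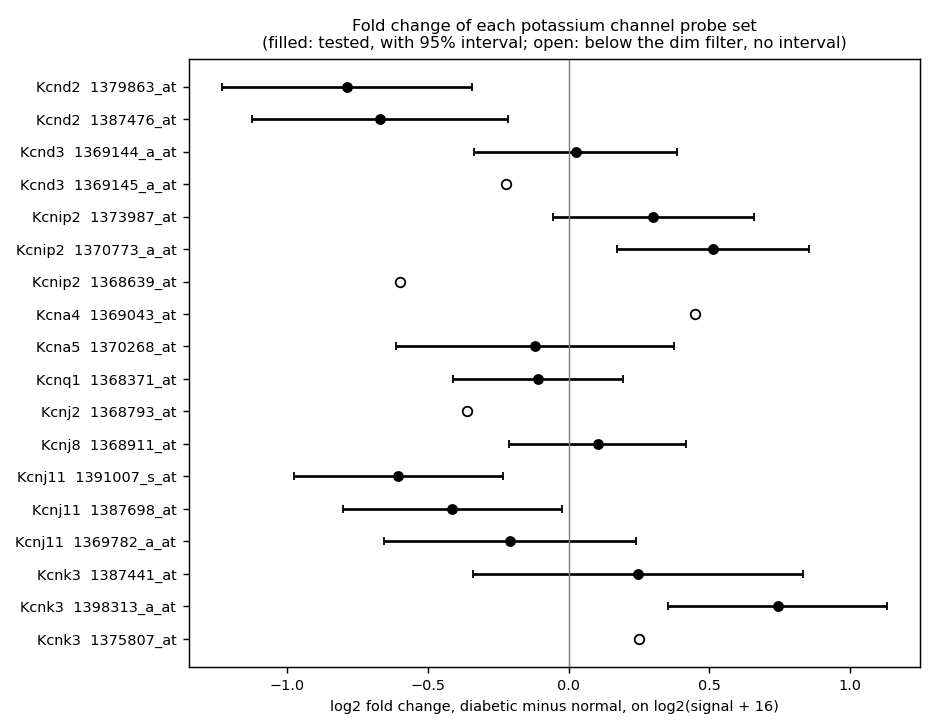
Log2 fold change (diabetic minus normal, on log2(signal + 16)) of each of the 18 potassium channel probe sets, with limma's 95% interval for the 13 tested (filled) and no interval for the 5 below the dim filter (open). Intervals at both Kcnd2 probe sets, 2 of 3 Kcnj11 probe sets, 1 Kcnip2 and 1 Kcnk3 probe set leave out 0 before adjustment for multiple tests.

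The promoters of Kcnd2 and Kcnip2 are shown because the products form a single channel and the probe sets with groups apart lay on opposite sides, Kcnd2 lower and Kcnip2 higher in diabetic arrays. Both windows come from RefSeq on build GRCr8, run from 250 bases before to 50 after the annotated start, and are written along the gene's own strand. That of Kcnd2 lies at chr4:50742235-50742534 on the plus strand and that of Kcnip2 at chr1:254613849-254614148 on the minus strand. Capitals mark CACCC, a core of sites read by Krüppel-like factors, and GGGCGG, the GC box, on either strand (GGGTG and CCGCCC on the reverse), and no 2 matches in them overlap.
Kcnd2: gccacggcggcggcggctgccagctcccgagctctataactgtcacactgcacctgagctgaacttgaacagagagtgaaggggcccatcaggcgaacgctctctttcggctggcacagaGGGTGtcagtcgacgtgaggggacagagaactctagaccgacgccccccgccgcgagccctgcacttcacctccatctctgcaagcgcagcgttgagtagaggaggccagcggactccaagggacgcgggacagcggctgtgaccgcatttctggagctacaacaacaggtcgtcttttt
Kcnip2: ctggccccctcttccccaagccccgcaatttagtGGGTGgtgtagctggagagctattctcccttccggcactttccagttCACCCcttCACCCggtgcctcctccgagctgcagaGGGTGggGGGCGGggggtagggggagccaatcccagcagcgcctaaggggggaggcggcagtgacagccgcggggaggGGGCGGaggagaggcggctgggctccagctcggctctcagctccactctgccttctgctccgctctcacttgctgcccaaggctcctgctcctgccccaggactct
Kcnip2 held 4 matches to CACCC and 2 to GGGCGG, and Kcnd2 held 1 and 0. Kcna4, which was higher in every diabetic array, also held 1 and 0, and Kcnd3 held 0 and 1. CANNTG (N for any base), also searched, had 1 match in each of the Kcnd2, Kcnip2 and Kcna4 windows and 0 in that of Kcnd3. It was present in 72.1% of all windows. A link between these matches and the direction of a difference was not tested. Among 33469 rat promoter windows of the same length, 54.9% held at least 1 CACCC, 3.07% held 4 or more, and 33.1% held GGGCGG; these shares were not matched for base composition, and the Kcnip2 window was 67.7% G and C against 61.7% for Kcnd2. TATAAA, present in 14.2% of all windows, was in none of the 7 windows that the table holds for the 10 genes. Letters of this kind are a description of the window, not of binding.

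Kcna5 encodes Kv1.5, a channel of sustained outward current. It read 226.2, 155.0 and 167.2 in diabetic arrays and 260.0, 149.4 and 196.5 in normal arrays, with full overlap. The log2 fold change of -0.12 ± 0.22 (95% interval -0.61 to 0.38, adjusted p = 0.824) turned to 0.07 without normal 1. Kcnq1 encodes the pore of the slow delayed rectifier. It read 383.8, 369.1 and 363.0 in diabetic arrays and 382.6, 411.2 and 414.1 in normal arrays, and its log2 fold change of -0.11 ± 0.13 had one of the narrower intervals here, -0.41 to 0.19 (adjusted p = 0.707). Kcnj2 encodes Kir2.1, the main inward rectifier of ventricular muscle. Its probe set was below the filter, at 60.6, 55.0 and 32.8 in diabetic and 55.9, 86.0 and 61.0 in normal arrays, with overlapping groups.

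The ATP-sensitive channel pairs a pore of the Kir6 family with a sulfonylurea receptor, and closes when ATP is plentiful. Kcnj11, the pore gene Kir6.2 of cardiac muscle, had lower means in diabetic arrays at each of its 3 probe sets. The brightest, 1391007_s_at, read 1116.0, 1347.6 and 1551.2 in diabetic arrays, against 1987.5, 2205.1 and 1896.5 in normal arrays. The groups did not overlap, and the log2 fold change was -0.60 ± 0.16 (95% interval -0.98 to -0.23), a ratio of 0.66, with an adjusted p of 0.0881. At 1387698_at, where diabetic arrays read 739.6, 870.8 and 796.7 and normal arrays 866.3, 1152.4 and 1232.3, it was -0.41 ± 0.17 (adjusted p = 0.222), with diabetic 2 above normal 1. At 1369782_a_at, with 418.8, 561.5 and 500.6 in diabetic and 513.6, 483.0 and 741.6 in normal arrays, it was -0.21 ± 0.20 (adjusted p = 0.61), and the groups overlapped. The size of the difference thus varied between probe sets of the same gene, while the sign was shared. At 1369782_a_at it was -0.02 without normal 3. This probe set and 1387698_at have the same target sequence, so the shared sign is not that of 3 independent readings.

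Kcnj8, the Kir6.1 gene best known from vascular smooth muscle and pericytes, read 709.1, 751.0 and 732.0 in diabetic arrays and 660.3, 746.5 and 635.2 in normal arrays. Diabetic arrays were close together and overlapped the normal ones, and the log2 fold change was 0.10 ± 0.14 (95% interval -0.21 to 0.42, adjusted p = 0.739). Within arrays, the log2 signal of Kcnj11 1391007_s_at minus that of Kcnj8 differed by -0.71 in diabetic against normal arrays. The groups did not overlap, as they did not for this Kcnj11 probe set by itself. The other Kcnj11 probe sets, whose own groups overlapped, were not used in the pair. The summed signal of 10 smooth muscle and pericyte markers was 4858 to 5449 in diabetic arrays and 5605 to 6436 in normal arrays, and counted once per gene, 0 of 9 passed, although the dimmer of the Mcam probe sets fell, by 1.16 on the log2 scale (adjusted p = 0.0175). Their part in the Kcnj8 and Abcc9 values was not tested.

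The receptor genes lie beside the pore genes, Abcc8 next to Kcnj11 on chromosome 1 and Abcc9 next to Kcnj8 on chromosome 4 in the rat gene table. Abcc8 encodes the receptor SUR1. It read 289.7, 254.4 and 281.0 in diabetic arrays, against 437.9, 419.9 and 394.2 in normal arrays, so the groups were well apart, and the difference was -0.58 ± 0.14 on the log2 scale (adjusted p = 0.0639). Abcc9 encodes SUR2, the form of ventricular muscle and vessels, and its probe sets disagreed. The brightest read 1356.7, 1237.9 and 1155.1 in diabetic arrays, against 1409.8, 1699.0 and 2128.1 in normal arrays (log2 -0.46 ± 0.18, adjusted p = 0.197). Another, 1387287_a_at, was at 0.55 ± 0.21 on the log2 scale (adjusted p = 0.18), and the third at -0.32 ± 0.32.

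Kcnk3 encodes TASK-1, a background channel closed by extracellular acid. The probe set 1398313_a_at had the lowest p of the 13, with 686.3, 612.6 and 866.7 in diabetic arrays, against 398.8, 476.6 and 391.1 in normal arrays. Every diabetic heart was above every normal heart, and the log2 fold change was 0.74 ± 0.17 (95% interval 0.35 to 1.13), a ratio of 1.67, with an adjusted p of 0.0572. The brighter probe set of the same gene, 1387441_at, did not show this. It read 1165.6, 562.5 and 716.2 in diabetic arrays and 534.5, 760.7 and 686.0 in normal arrays, where the log2 fold change of 0.25 ± 0.26 (adjusted p = 0.654) rested on diabetic 1 and was -0.04 without it. The third, 1375807_at, was below the filter, at 38.6 to 119.9 in diabetic and 21.4 to 142.6 in normal arrays, and its log2 value of 0.25 turned to -0.29 without normal 3. The Kcnk3 difference is therefore that of 1 probe set in 3.

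The closest profiles to that Kcnk3 probe set over the 6 arrays, among 8087 other tested single-gene probe sets, were those of Cenpp, Bex3, Fcho2, Nsa2 and Sephs2, with Pearson's r from 0.983 to 0.991 on the log2 scale. Of these Bex3 passed the test, at 2089.0, 1888.3 and 2417.5 in diabetic arrays, against 1123.6, 1309.3 and 1100.8 in normal arrays (log2 0.84 ± 0.16, adjusted p = 0.0271). The 6 points fall into the 2 groups, and these r values are a description of how alike the profiles are.

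The count of calls moved with the prior of the fit, the dim filter and the pseudocount. With an intensity trend in limma's prior, 3 passed: Kcnk3 1398313_a_at (adjusted p = 0.0258), Kcnj11 1391007_s_at (0.0319) and Kcnip2 1370773_a_at (0.0396), where 527 of all tested probe sets passed. With a filter at the 60th percentile, which leaves out both Kcnd2 probe sets, Kcnk3 (adjusted p = 0.0262) and Kcnj11 (0.0466) passed, and with a pseudocount of 64 Kcnk3 did (0.0384). With no filter 0 passed, and 18 probe sets did on the whole array. With any 1 array left out the count was 0. The Kcnd2 probe sets passed under none of these settings, and the lowest adjusted p of the brighter one was 0.0598, with array weights.

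**Figure D3:**
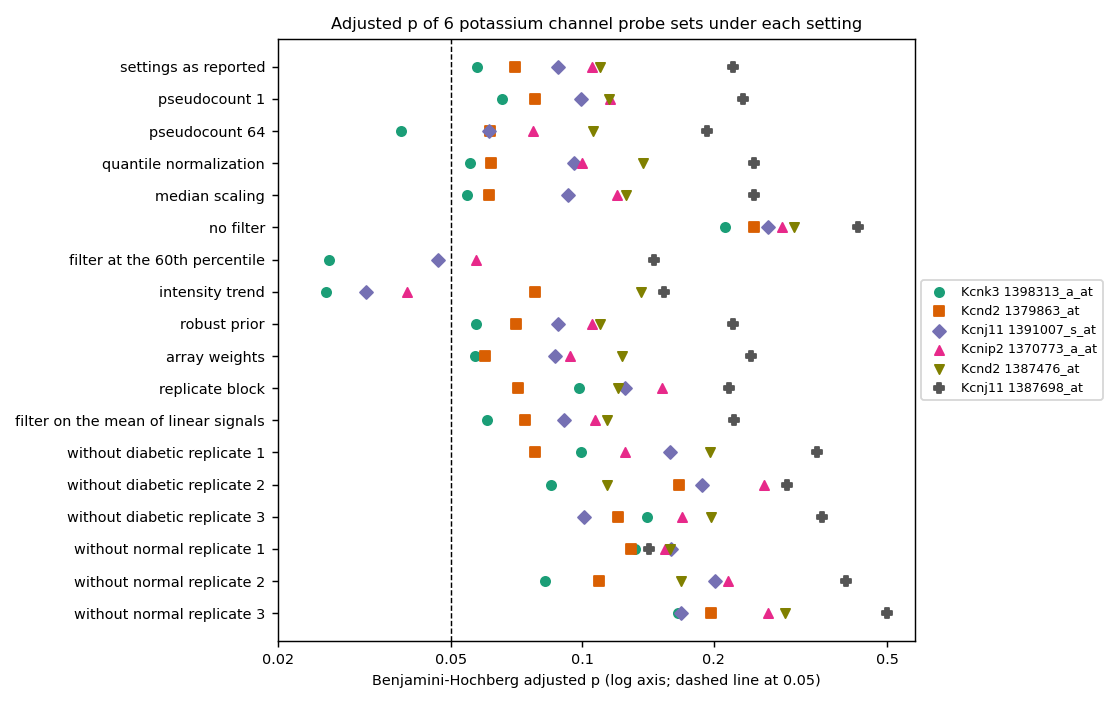
Benjamini-Hochberg adjusted p (log axis) of the 6 potassium channel probe sets with an unadjusted p under 0.05, under the reported settings (top row) and each alternative (one row each), with a dashed line at 0.05. Points lie left of the line in 3 rows, for a pseudocount of 64, a filter at the 60th percentile and an intensity trend, and no Kcnd2 point does.

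Other potassium channel genes gave no call either. Of 60 on the list, the array holds 50. Of these, 8 were above the dim filter at 1 probe set or more, and 0 rose and 0 fell by limma. Their median log2 fold change was 0.04. At an unadjusted p under 0.05 the count was 1, against 19.9% of all tested probe sets. The 1 was Kcnj5, a pore subunit of the acetylcholine-gated inward rectifier, at 563.8, 746.6 and 763.1 in diabetic and 458.9, 566.6 and 397.1 in normal arrays (log2 0.53 ± 0.19, adjusted p = 0.158). Diabetic 1 lay just under normal 2 there. A dimmer Kcnj5 probe set, at 59.6, 243.2 and 233.1 in diabetic and 167.3, 171.9 and 85.3 in normal arrays, did not show this difference (log2 0.16 ± 0.45, adjusted p = 0.886). Kcnk2, the stretch-activated leak channel TREK-1, was at -0.71 ± 0.32 (adjusted p = 0.264), Kcns3 at 0.23 ± 0.16 and Hcn2, a pacemaker channel, at -0.23 ± 0.37. Kcnh2, the pore of the rapid delayed rectifier, differed by 0.00 ± 0.18 on the log2 scale, and the beta subunit genes Kcne1, Kcne2 and Kcne3 were below the filter.

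Among accessory subunits and partners of these channels, 1 of 6 tested genes fell and 0 rose, against 1.38% and 1.5% of all tested probe sets. The 1 that fell was Flna, filamin A, an actin crosslinker that binds Kv4.2 and Kir2.1. It read 816.7, 800.1 and 750.2 in diabetic arrays, against 1341.5, 1509.3 and 1820.9 in normal arrays (log2 -0.96 ± 0.16, adjusted p = 0.0175). The call was lost without diabetic 2 (0.0629), diabetic 3 (0.0616), normal 2 (0.053) or normal 3 (0.0594), and with no filter (0.105). Abcc8, Cav3, the muscle caveolin (log2 -0.55 ± 0.18, adjusted p = 0.13), and Abcc9 had lower signals in every diabetic array at the probe set counted here. With Flna that makes 4 of 6, where diabetic arrays were fully below at 13.6% of all tested probe sets and groups were apart at 25.7%. Whether the list differs as a group was not tested. The median of the 6 was -0.51, beside -0.01 for all tested probe sets. Flna is expressed by many non-muscle cells. Fibroblast markers fell at 4 of 6 tested genes, against 1.38% of all tested probe sets. Their summed signals were 20463 to 21715 in diabetic and 31943 to 36808 in normal arrays. Beta-actin control probe sets were lower too, by log2 -0.76 to -1.01, while those of GAPDH were at -0.04 to -0.13. The part of fibroblasts or of beta-actin in the Flna difference was not tested.

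Of 6 tested genes of the depolarizing channels, the sodium-calcium exchanger and the sodium pump, 1 fell and 0 rose. Of all tested probe sets, 1.38% fell and 1.5% rose. The pump gene counted was Atp1b1, at 0.13 ± 0.14 on the log2 scale and -0.17 ± 0.17 at its dimmer probe set. Scn4b, the sodium channel beta-4 subunit, read 1119.7, 735.9 and 647.7 in diabetic arrays, against 2013.7, 2516.0 and 2146.4 in normal arrays (log2 -1.43 ± 0.21, adjusted p = 0.012), and it passed with any 1 array left out (highest adjusted p 0.0496) but not with no filter (0.0922). Slc8a1, the exchanger, was lower in every diabetic array at its brighter probe set (log2 -0.68 ± 0.17, adjusted p = 0.0755). At its dimmer probe set the groups overlapped (log2 -0.17 ± 0.28, adjusted p = 0.794). Cacna1c and Cacnb2, of the L-type calcium channel, were at 0.07 ± 0.16 and 0.06 ± 0.16 at their brightest probe sets. Dimmer tested probe sets were at 0.30 ± 0.22 for Cacna1c and at -0.32 ± 0.19 and 0.36 ± 0.26 for Cacnb2.

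Of 14 tested regulators known to act on potassium channel genes, 0 passed. At an unadjusted p under 0.05 the count was 6, against 19.9% of all tested probe sets. Groups were fully apart at 6, with diabetic arrays above at 3 and below at 3, against 25.7% of all tested probe sets. Klf15, a transcription factor that in mice drives the daily rhythm of Kcnip2, read 1942.9, 1955.3 and 1748.7 in diabetic arrays, against 931.5, 930.0 and 1468.7 in normal arrays. No diabetic array was as low as the highest normal array, normal 3. The log2 fold change was 0.79 ± 0.20 (adjusted p = 0.0722). Without normal 3 it was 1.00 and passed (adjusted p = 0.0315). With any other array left out it was 0.68 to 0.84 and did not pass (adjusted p = 0.132 to 0.176). Thrb, a thyroid hormone receptor, was at 0.68 ± 0.19 (adjusted p = 0.09). Mef2c and Ppp3ca, which encodes a calcineurin catalytic subunit, were each at -0.50 ± 0.16 (adjusted p = 0.121 and 0.129), though a second Mef2c probe set had the opposite sign at 0.44 ± 0.25. The median of the 14 was 0.03.

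**Figure D4:**
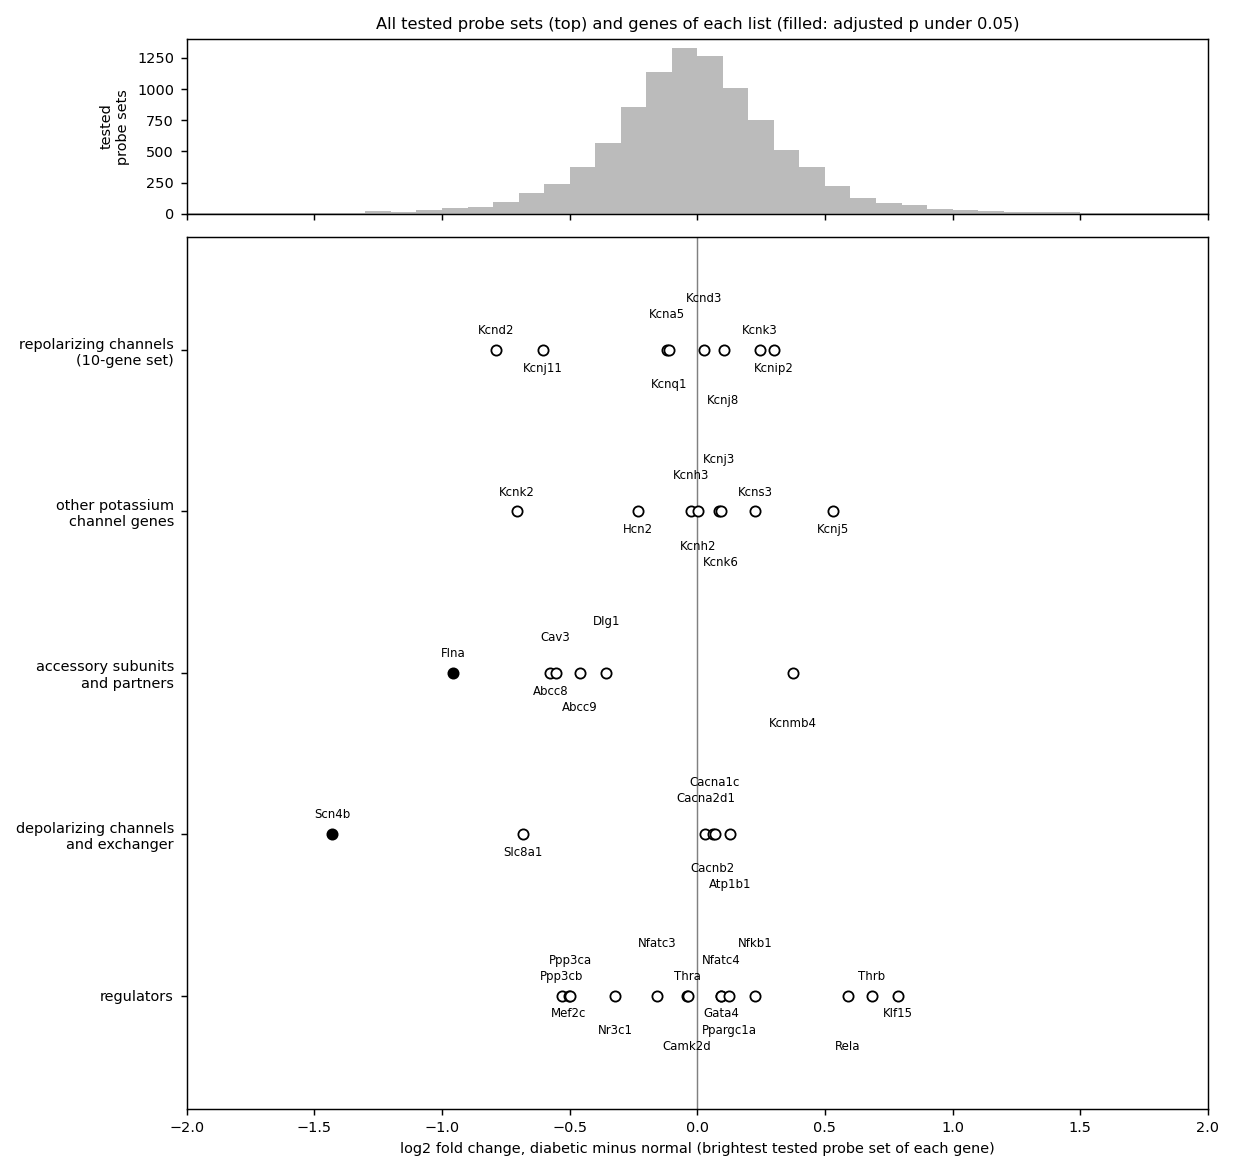
Log2 fold change (diabetic minus normal) of all tested probe sets as a histogram (top) and of each list gene at its brightest tested probe set (below), with filled points for adjusted p under 0.05. Only Flna and Scn4b are filled, and the 8 tested repolarizing channel genes run from -0.79 for Kcnd2 to 0.30 for Kcnip2.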

How the data were processed

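The authors deposited a value table of signal intensities, 1 per array at each probe set and linear rather than logged. How they were summarised and normalized is not given in the sources used here. Trimmed means (2% off each end) were 500.2 on every array, so values were used as deposited. The 57 control probe sets were left out. Symbols came from the array's annotation, updated by gene number through a rat gene table (GRCr8). Signals became log2(value + 16). The 9519 of 15866 probe sets with a mean log2 signal over the 40th percentile were tested. Diabetic and normal arrays were compared by a two-sided moderated test (limma version 3.58.1, run in R version 4.3.3), with Benjamini-Hochberg adjustment over all tested probe sets and a threshold of 0.05. The code was tested on simulated data. No detection calls were used. Precision is limited by 3 arrays a group.

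Every probe set of the 10 genes is described. From each other list, genes that passed and the 4 with the smallest p could be named, counted at the brightest tested probe set, and genes named beyond these were chosen after their values were seen. The members and lists were chosen with earlier results of these data known. Alternatives changed the pseudocount, the scaling, the filter or limma's prior, weighted arrays, blocked on replicate number, or left out each array in turn. Figures used matplotlib 3.10.9 in Python 3.11.15.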

Additional observations from a re-analysis of the deposited data

How the results depend on the processing

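The count of potassium channel probe sets past the threshold, 0 of 13, became 1 with a pseudocount of 64, 2 with a filter at the 60th percentile and 3 with an intensity trend, and stayed at 0 with any 1 array left out. All calls on the array numbered 274 as reported, 18 with no filter, 437 with the 60th percentile filter, 527 with the trend and 99 to 202 with 1 array left out. Accessory genes past the threshold numbered 0 with no filter, 2 with the 60th percentile filter and 0 to 1 with 1 array left out. Genes of the depolarizing list, which holds the exchanger and the pump, numbered 0 with no filter. They numbered 2 with a pseudocount of 64, the 60th percentile filter or the trend. Regulators numbered 1 under those last 3 settings and 0 to 1 with 1 array left out. The within-array difference of Kcnd2 and Kcna4 was -0.91 with a pseudocount of 64, and -1.42 to -1.09 with 1 array left out. Signs of 5 potassium channel probe sets turned with 1 array left out: Kcnd3 1369144_a_at ran from -0.11 to 0.12, Kcna5 from -0.30 to 0.068, Kcnk3 1387441_at from -0.041 to 0.47, and the untested Kcnd3 1369145_a_at from -0.67 to 0.34 and Kcnk3 1375807_at from -0.29 to 0.76. Hcn2 turned to 0.14 without diabetic 2 and Cacna1c to -0.03 without normal 1. The dim Kcnip2 probe set 1368639_at was at -1.19 with a pseudocount of 1. A filter on the mean of linear signals, chosen after seeing the data, left 0 potassium channel calls and 245 in all. With the replicate number as a block, 0 potassium channel probe sets and 183 in all passed; deviations of same-numbered arrays correlated at 0.07, 0.01 and 0.02, and diabetic 3 correlated best with another number, so the numbers were not taken to pair the animals. Except for a setting's own construction (fewer probe sets or arrays), the cause of these shifts was not tested. Both Kcnd2 probe sets are absent at the 60th percentile filter, and probe sets near the low end of signals, such as those of Kcna4 and Kcnj2, are limited by background that no detection call measures here.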
